A study of Rattus norvegicus with 8 samples.

Results

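The genes described here encode proteins that tie actin filaments to each other or to the cell membrane. They are Svil, Pls3, Lcp1, Flna, Actn1 and Lima1, which bundle or crosslink filaments, and Msn, Ezr and Rdx, which link filaments to membrane proteins. A probe set is a group of oligonucleotides on the array that together measure a transcript. All probe sets annotated to these symbols alone were taken, and the brightest of them, by its mean over the 8 arrays, stands for the gene (the main probe set). This gives 9 of 14217 annotated genes and 21 of 31042 probe sets.

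Gene expression was measured in glomeruli, the filtering units of the kidney, isolated by magnetic retraction from male rats kept on a low-salt diet. Dahl SS rats (Dahl rats), a salt-sensitive strain that becomes spontaneously proteinuric, were compared with spontaneously hypertensive rats (SHR rats), which do not. Each strain was studied at 4 and 6 weeks of age, with 2 rats, labelled as biological replicates, in each of the 4 groups and a separate array for each. The strains also differ in genotype, and a sequence difference under a probe cannot be told apart from a difference in RNA level.

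Bundling and crosslinking proteins decide whether actin filaments form parallel cables, networks or contractile arrays, and LIM-domain proteins such as the product of Lima1 stabilize them. Ezrin, radixin and moesin (the ERM proteins) open on phosphorylation and then hold filaments to membrane proteins. In the glomerulus, the foot processes of podocytes are built around actin bundles, and in podocytes ezrin is known as a partner of podocalyxin, the protein encoded by Podxl.

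The deposited values are log2 intensities, and the levels of different probe sets cannot be set against each other. Array medians lay between 4.11 and 4.16. Glomerular markers were bright on every array: Nphs1 (nephrin, a protein of the slit diaphragm) lay between 12.10 and 12.65 in Dahl rats and between 11.84 and 12.26 in SHR rats, and Kdr, an endothelial receptor, between 11.86 and 12.46 in Dahl rats and between 11.64 and 12.06 in SHR rats. Over both ages 6 of 15 podocyte markers and 8 of 16 endothelial markers were higher in Dahl rats and none of either lower. Of 23 proximal tubule markers 4 were lower and 1 higher, and of 19 markers of the distal nephron 8 were lower and none higher. Of all probe sets, 10.6% were higher and 24.2% lower, so the share of lower proximal tubule markers did not exceed that of all probe sets. The median difference of the proximal tubule markers was nevertheless -1.08, against -0.053 for all probe sets. The proximal tubule score (the median deviation of these markers from their means) ran from -1.94 to 0.15 in Dahl rats and from 0.26 to 0.93 in SHR rats. The array of Dahl 6 weeks replicate 2 stood apart from the other 7, at -1.94 against -0.20 to 0.93. Without it, 5 of the 9 genes (Svil, Lcp1, Flna, Lima1 and Msn) were higher in Dahl rats over both ages, in place of the 7 described next. The calls over all probe sets also varied with the array left out, so a lower count is not particular to these genes or to Dahl 6 weeks replicate 2. In bulk glomeruli, fewer cells of a type and less RNA per cell cannot be told apart.

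Over both ages together, 7 of the 9 genes were higher in Dahl rats compared with SHR rats (limma, adjusted p under 0.05 over all probe sets), where 10.6% of all probe sets were higher, and none was lower, where 24.2% of all probe sets were. The 7 were Svil, Pls3, Lcp1, Flna, Lima1, Msn and Rdx. Actn1 and Ezr did not pass. All 9 main probe sets lie above the median signal of the array. Of the probe sets above that median 19.3% were higher in Dahl rats, and of the main probe sets of all genes 13.2%. Lower in Dahl rats were 21.2% of the main probe sets of all genes and 36.3% of the probe sets at or below that median. In a fit of the probe sets above that median alone, 1824 of 15521 were lower. The median difference of the 9 genes was 0.74, against -0.053 for all probe sets and 0.051 for those above the median signal. Svil, Pls3 and Msn belong to the genes that the study itself picked from these arrays, so their direction is not independent of that choice. For 5 of the 9 main probe sets, Svil, Pls3, Flna, Msn and Rdx, all Dahl values exceeded all SHR values, as did those of 8.15% of all probe sets.

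**Figure D1:**
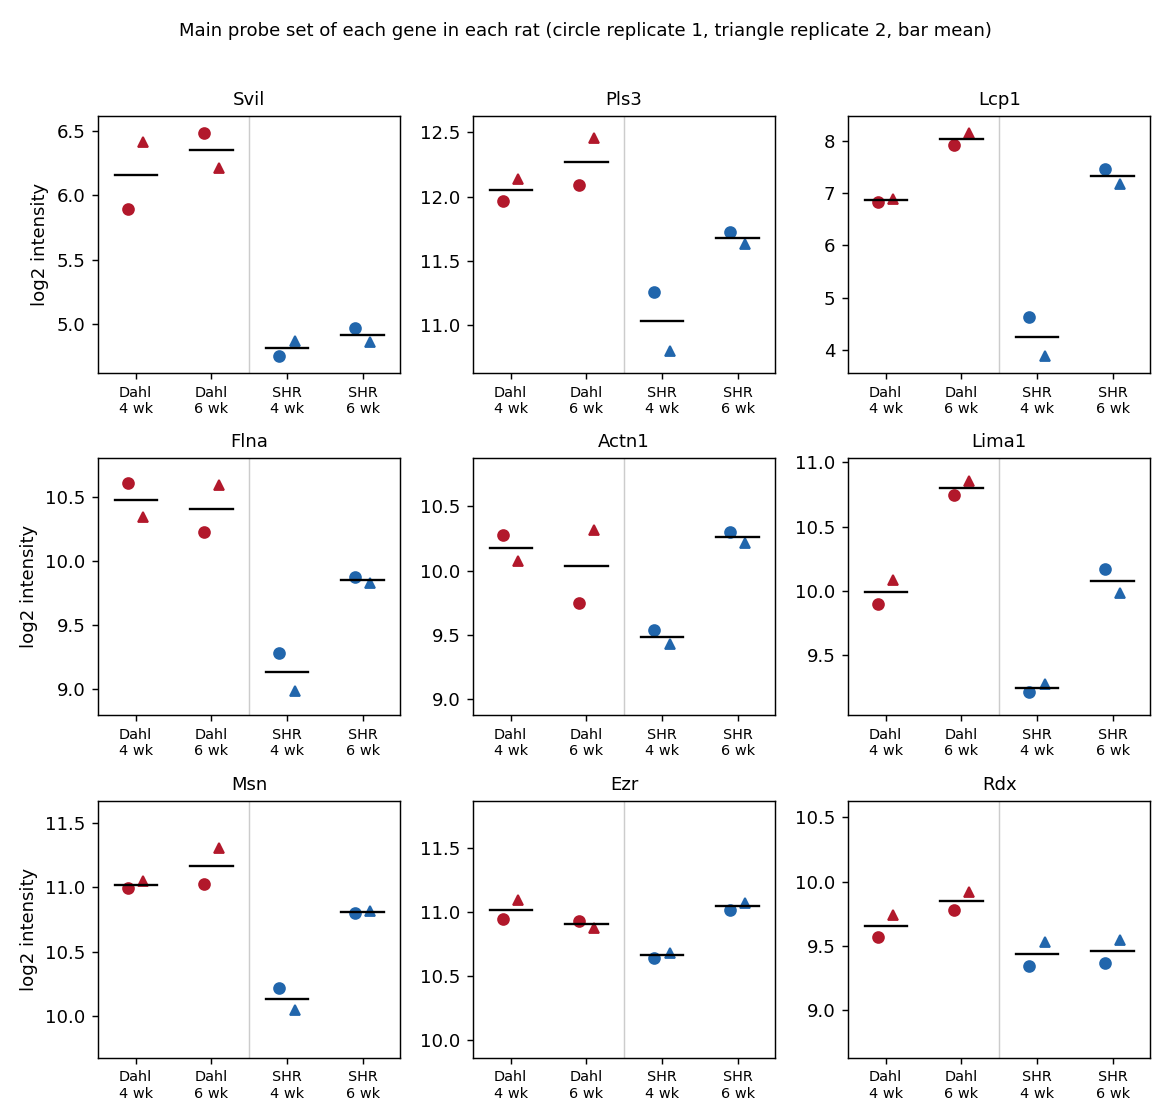
Log2 intensity of the main probe set of each of the 9 genes in each rat, Dahl rats in red and SHR rats in blue, at 4 and 6 weeks (wk); circles and triangles are replicates 1 and 2 and bars the mean of 2 rats. In Svil, Pls3, Flna, Msn and Rdx every red point lies above every blue point, and in Lcp1 the lowest values, 3.88 and 4.63, are those of SHR rats at 4 weeks. Each panel has its own scale, which does not start at 0.

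Promoter sequences were found for 8 of the 9 genes in the RefSeq table of the GRCr8 assembly, each running from 250 bases before to 50 bases after an annotated start site. They were searched on both strands for the CArG box (bound by serum response factor, a regulator of cytoskeletal and muscle genes), GGAATG (the core bound by TEAD factors, the partners of YAP) and GGGCGG (bound by Sp1). The CArG box was present in Svil, 10 bases before the start site, and in Lima1, 209 bases before it, with the same letters in both, and in 1.64% of all 33469 promoters of the table. GGAATG was present in Pls3, 240 bases before the start, and as its complement in Flna, 74 bases before it, and in 14.2% of all promoters. GGGCGG was present in 7 of the 8, all but Svil, against 33.1% of all promoters. No match overlapped another. The 4 windows that hold a CArG box or GGAATG are given here, and a link of these motifs to the strain differences was not tested. The motif is in capitals, and the sequence reads in the direction of the gene.
Svil, chr17:57462611-57462910, minus strand: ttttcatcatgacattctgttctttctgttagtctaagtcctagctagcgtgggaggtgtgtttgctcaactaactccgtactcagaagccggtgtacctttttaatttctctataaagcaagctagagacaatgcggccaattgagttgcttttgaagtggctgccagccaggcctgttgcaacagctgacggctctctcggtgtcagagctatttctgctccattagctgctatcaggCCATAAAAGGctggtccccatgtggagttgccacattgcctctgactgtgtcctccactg
Lima1, chr7:132880294-132880593, minus strand: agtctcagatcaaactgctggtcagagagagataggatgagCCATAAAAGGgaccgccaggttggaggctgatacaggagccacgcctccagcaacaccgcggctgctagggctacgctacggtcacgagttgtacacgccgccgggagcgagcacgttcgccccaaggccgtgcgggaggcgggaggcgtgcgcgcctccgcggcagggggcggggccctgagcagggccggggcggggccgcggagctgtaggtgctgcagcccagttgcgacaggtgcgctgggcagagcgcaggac
Pls3, chrX:116401059-116401358, plus strand: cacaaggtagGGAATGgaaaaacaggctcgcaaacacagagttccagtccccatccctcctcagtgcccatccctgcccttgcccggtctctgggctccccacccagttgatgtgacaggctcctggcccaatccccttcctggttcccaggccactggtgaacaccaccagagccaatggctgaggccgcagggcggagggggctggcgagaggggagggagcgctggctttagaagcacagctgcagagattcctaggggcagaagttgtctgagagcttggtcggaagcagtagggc
Flna, chrX:157182294-157182593, minus strand: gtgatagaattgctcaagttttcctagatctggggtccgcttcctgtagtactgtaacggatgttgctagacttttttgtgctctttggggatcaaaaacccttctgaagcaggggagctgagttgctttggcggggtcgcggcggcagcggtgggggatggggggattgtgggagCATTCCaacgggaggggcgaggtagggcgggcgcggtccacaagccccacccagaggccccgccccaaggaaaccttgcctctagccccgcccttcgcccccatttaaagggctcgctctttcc
The start site used for Svil lies 76848 bases inside the 5′ end of the annotated gene and that for Flna 3216 bases inside it, so these windows belong to internal starts. Which start gives the RNA that the probe sets measure is not known, and a match of letters does not show that a factor binds there.

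Svil, which encodes supervillin, a membrane-associated protein that binds actin and myosin, separated the strains at both ages. It was at 5.90 and 6.41 in Dahl rats at 4 weeks and 6.49 and 6.22 at 6 weeks, against 4.75 and 4.87 in SHR rats at 4 weeks and 4.97 and 4.86 at 6 weeks. The lowest Dahl rat lay well above the highest SHR rat, and within each strain the ages overlapped, with the Dahl rats of 4 weeks 0.52 apart. Svil was 2.62-fold higher in Dahl rats over both ages (log2 difference 1.39, SE 0.14, adjusted p = 0.00826). The differences were 1.35 at 4 weeks (adjusted p = 0.0232) and 1.44 at 6 weeks (adjusted p = 0.0395).

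The other 4 probe sets of Svil went the other way. Their means were 3.70, 3.25, 2.93 and 2.17, all below the series median of 4.17, and their differences were -0.32, -0.22, -0.079 and -0.052. Every Dahl rat lay below every SHR rat in all 4, 3 of which passed the test. Of all probe sets, 42.1% had this order, and of those at or below the median signal 72.0%, with a median difference of -0.067 over these dim probe sets. The statement that Svil was higher therefore rests on its main probe set, and with the mean of its 5 probe sets the difference was 0.14 (adjusted p = 0.0299), and neither age passed by itself (adjusted p = 0.128 at 4 weeks and 0.0896 at 6 weeks). Supervillin has a muscle isoform, and of 19 measured markers of striated muscle 16 lay below the series median on every array. Of the 19, 4 were higher and 5 lower in Dahl rats over both ages, against 10.6% and 24.2% of all probe sets. Among the brighter markers, Myom2 ran from 8.06 to 9.61 in Dahl rats and from 2.43 to 5.69 in SHR rats. Synpo2l ran from 7.77 to 9.05 in Dahl rats and from 3.65 to 5.25 in SHR rats. Tnnc1 ran from 11.924 to 12.625 in Dahl rats and overlapped with SHR rats, at 10.305 to 12.053. The part of muscle RNA in the Svil result was not tested.

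**Figure D2:**
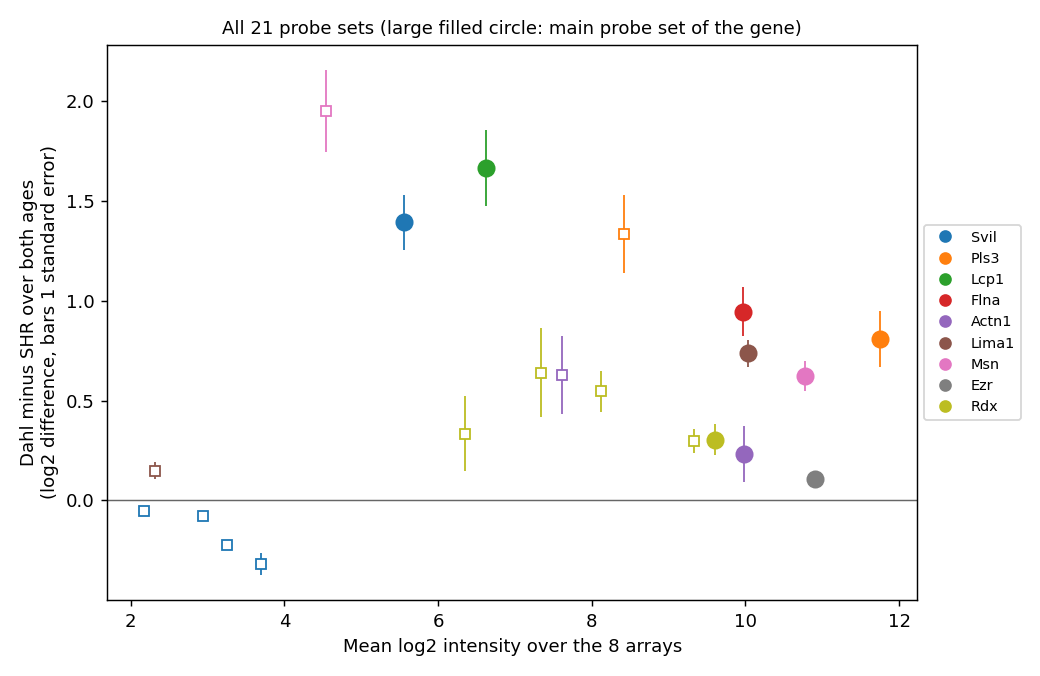
Dahl minus SHR over both ages (log2 difference, vertical axis, bars 1 standard error) against the mean log2 intensity over the 8 arrays (horizontal axis) for all 21 probe sets, coloured by gene, with large filled circles for main probe sets and open squares for the others. The 4 dim probe sets of Svil lie just below 0, between -0.32 and -0.052, and every other probe set lies above 0.

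Pls3 encodes plastin 3, which packs actin filaments into tight parallel bundles in cells of solid tissues. It was at 11.97 and 12.14 in Dahl rats at 4 weeks and 12.09 and 12.45 at 6 weeks, against 11.26 and 10.80 in SHR rats at 4 weeks and 11.72 and 11.63 at 6 weeks. All 4 Dahl rats lay above all 4 SHR rats, and the younger SHR rats were the lowest. Over both ages Pls3 was 1.75-fold higher in Dahl rats (0.81, SE 0.14, adjusted p = 0.0212). The difference was 1.02 at 4 weeks (adjusted p = 0.0396) and 0.60 at 6 weeks (adjusted p = 0.125). A second probe set gave 9.02, 9.15, 8.81 and 9.35 in Dahl rats, against 7.63, 7.40, 8.30 and 7.68 in SHR rats, again without overlap and with a larger difference of 1.33. The call of the main probe set over both ages was lost without Dahl 4 weeks replicate 2 (0.77, adjusted p = 0.0701), Dahl 6 weeks replicate 2 (0.72, 0.0513), SHR 6 weeks replicate 1 (0.83, 0.0667) or SHR 6 weeks replicate 2 (0.79, 0.0739).

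Lcp1 encodes the plastin of leukocytes, L-plastin, and varied most among the 9 genes. It was at 6.84 and 6.89 in Dahl rats at 4 weeks and 7.92 and 8.16 at 6 weeks, against 4.63 and 3.88 in SHR rats at 4 weeks and 7.47 and 7.18 at 6 weeks. SHR rats at 4 weeks stood far below every other rat, and within each age the strains did not overlap, while the older SHR rats lay above the younger Dahl rats. At 4 weeks Lcp1 was 6.12-fold higher in Dahl rats (2.61, SE 0.27, adjusted p = 0.0122). At 6 weeks the ratio was 1.64 (0.72, adjusted p = 0.143), and over both ages it was 3.17 (1.66, SE 0.19, adjusted p = 0.0102). In SHR rats Lcp1 was 8.42-fold higher at 6 weeks than at 4 weeks (3.07, SE 0.27, adjusted p = 0.0171), against 2.26-fold in Dahl rats, which did not pass (1.18, adjusted p = 0.331). The interaction, that is, the change of the strain difference between the ages (6 minus 4 weeks), was -1.90 (SE 0.38, adjusted p = 0.161), so a change of the strain difference with age was not shown.

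Leukocyte markers moved with Lcp1. Coro1a, an actin-binding protein of leukocytes, was at 5.84, 6.09, 6.79 and 7.20 in Dahl rats (4 weeks, then 6 weeks), against 3.69, 3.21, 6.63 and 6.18 in SHR rats. Ptprc, which encodes the pan-leukocyte surface protein CD45, was at 6.33, 6.62, 6.99 and 7.45 in Dahl rats, against 4.69, 4.35, 6.86 and 6.68 in SHR rats. Csf1r, a receptor of macrophages, was at 5.63, 5.30, 6.10 and 6.15 in Dahl rats, against 3.52, 3.32, 5.68 and 5.41 in SHR rats. In all 3, as in Lcp1, the SHR rats of 4 weeks were the lowest, below all 6 other rats. Of 24 leukocyte markers, 12 were higher and 2 lower in Dahl rats at 4 weeks, where 5.63% and 6.41% of all probe sets were. At 6 weeks 0 markers were higher and 1 lower, where 1.65% and 1.63% of all probe sets were. Over both ages 14 markers were higher and 5 lower, where 10.6% and 24.2% of all probe sets were. In SHR rats 1.50% of all probe sets were higher and 0.915% lower at 6 weeks than at 4 weeks. Of the leukocyte markers, 10 were higher and none lower in that comparison. The log2 of their summed signal ran from 11.64 to 11.70 in Dahl rats at 4 weeks and from 12.19 to 12.63 at 6 weeks, against 10.52 to 10.81 in SHR rats at 4 weeks and 11.96 to 12.05 at 6 weeks. The T cell markers Cd3e, Cd3g, Cd4 and Cd8a, the B cell marker Cd79b, and Itgam and Plek were below the series median on every array. Lck, a kinase of T cells, was above it on all arrays but 1, at 4.72, 5.66, 5.49 and 6.20 in Dahl rats, against 3.55, 4.28, 5.72 and 5.29 in SHR rats, and did not pass at 4 weeks (1.27, adjusted p = 0.124) or over both ages (0.81, adjusted p = 0.105). Mrc1, a macrophage lectin, was lower in Dahl rats over both ages (-1.76, adjusted p = 0.0106). The part of leukocyte RNA in the Lcp1 result was not tested.

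**Figure D3:**
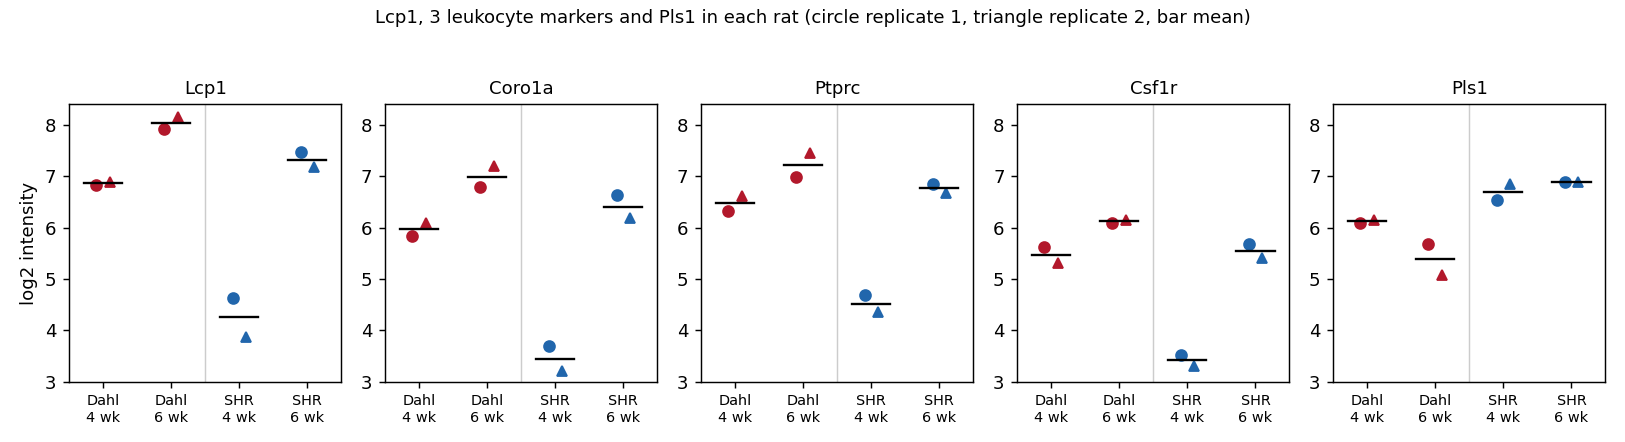
Log2 intensity of Lcp1, the leukocyte markers Coro1a, Ptprc and Csf1r, and Pls1 in each rat, Dahl rats in red and SHR rats in blue, at 4 and 6 weeks (wk); circles and triangles are replicates 1 and 2 and bars the mean of 2 rats. In the first 4 panels the SHR rats of 4 weeks are lowest (Lcp1 at 4.63 and 3.88), and in Pls1 every Dahl rat lies below every SHR rat.

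The remaining plastin gene, Pls1, which is known from the brush border of epithelia, was not among the 9 genes and went the other way. It was at 6.10, 6.15, 5.68 and 5.08 in Dahl rats, against 6.54, 6.85, 6.88 and 6.88 in SHR rats, without overlap. Pls1 was lower in Dahl rats over both ages (-1.04, SE 0.15, adjusted p = 0.0160) and at 6 weeks (-1.50, SE 0.22, adjusted p = 0.0450), and at 4 weeks it differed by -0.57 (adjusted p = 0.132). The lowest value belonged to Dahl 6 weeks replicate 2, the rat with the lowest proximal tubule score, and the part of tubular RNA was not tested.

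Flna encodes filamin A, which crosslinks filaments into networks and anchors membrane proteins to them. It was at 10.60 and 10.34 in Dahl rats at 4 weeks and 10.22 and 10.59 at 6 weeks, against 9.28 and 8.99 in SHR rats at 4 weeks and 9.88 and 9.83 at 6 weeks. No Dahl rat overlapped with an SHR rat, and the Dahl rats of both ages shared 1 range. Flna was 1.92-fold higher in Dahl rats over both ages (0.94, SE 0.12, adjusted p = 0.0122), with differences of 1.34 at 4 weeks (adjusted p = 0.0192) and 0.55 at 6 weeks (adjusted p = 0.118). SHR rats differed by 0.72 between 6 and 4 weeks (adjusted p = 0.136). Without SHR 6 weeks replicate 2, the adjusted p over both ages was 0.0509.

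Actn1 encodes alpha-actinin 1, a crosslinker of stress fibres and focal adhesions, and did not pass in any comparison. It was at 10.27 and 10.07 in Dahl rats at 4 weeks and 9.75 and 10.32 at 6 weeks, against 9.54 and 9.43 in SHR rats at 4 weeks and 10.30 and 10.22 at 6 weeks. The strains were apart at 4 weeks and overlapped at 6 weeks, where the Dahl rats themselves were far apart. The difference was 0.23 over both ages (95% confidence interval -0.13 to 0.60, adjusted p = 0.226), 0.69 at 4 weeks (adjusted p = 0.0873) and -0.23 at 6 weeks (adjusted p = 0.422). Without Dahl 6 weeks replicate 1, Actn1 passed over both ages (0.37, adjusted p = 0.0317). A second, dimmer probe set was at 8.13, 7.88, 7.49 and 8.20 in Dahl rats, against 7.03, 7.19, 7.27 and 7.70 in SHR rats, with a difference of 0.63 (adjusted p = 0.0601). Actn4, the alpha-actinin known from podocytes, in which mutations cause a human glomerular disease, was higher in Dahl rats over both ages (0.49, adjusted p = 0.0289).

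Lima1 encodes a LIM-domain protein, also called EPLIN, that stabilizes filaments and links them to cell junctions. It was at 9.90 and 10.08 in Dahl rats at 4 weeks and 10.75 and 10.85 at 6 weeks, against 9.21 and 9.27 in SHR rats at 4 weeks and 10.17 and 9.98 at 6 weeks. The strains were apart within each age, older rats were higher in both strains, and the Dahl rats of 4 weeks overlapped with the SHR rats of 6 weeks. Lima1 had the smallest adjusted p of the 9 genes over both ages (0.74, SE 0.067, 1.67-fold, adjusted p = 0.00758). The strain difference was nearly the same at 4 weeks (0.75, adjusted p = 0.0181) and at 6 weeks (0.72, adjusted p = 0.0382). With age Lima1 was 1.78-fold higher in SHR rats (0.83, adjusted p = 0.0284) and 1.75-fold in Dahl rats, which did not pass (0.81, adjusted p = 0.117). Its second probe set, with a mean of 2.32, was too dim to bear on this and differed by 0.15.

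Of the ERM genes, Msn, which encodes moesin, differed most between the strains over both ages and at 4 weeks, though not at 6 weeks, where the Rdx difference was larger. It was at 10.99 and 11.05 in Dahl rats at 4 weeks and 11.03 and 11.30 at 6 weeks, against 10.21 and 10.05 in SHR rats at 4 weeks and 10.80 and 10.82 at 6 weeks. All Dahl rats lay above all SHR rats, and the SHR rats of 6 weeks came close to the Dahl rats. Msn was 1.54-fold higher in Dahl rats over both ages (0.62, SE 0.075, adjusted p = 0.0110), with differences of 0.89 at 4 weeks (adjusted p = 0.0164) and 0.36 at 6 weeks (adjusted p = 0.113). Between 6 and 4 weeks in SHR rats it differed by 0.68 (adjusted p = 0.0544).

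The second probe set of Msn gave a larger strain difference from a much dimmer signal. It was at 5.01 and 5.80 in Dahl rats at 4 weeks and 5.52 and 5.71 at 6 weeks, against 3.73 and 3.31 in SHR rats at 4 weeks and 3.62 and 3.58 at 6 weeks. Its SHR values lay below the series median at both ages, and were alike at 4 and 6 weeks. It was 3.86-fold higher in Dahl rats over both ages (1.95, SE 0.21, adjusted p = 0.00904) and passed at 4 weeks (1.89, adjusted p = 0.0267) and at 6 weeks (2.01, adjusted p = 0.0449). The size of the Msn difference therefore depends on the probe set, and its direction does not.

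Ezr, which encodes ezrin, differed least of the ERM genes over both ages, though not at 4 weeks, where the Rdx difference was smaller. It was at 10.94 and 11.09 in Dahl rats at 4 weeks and 10.93 and 10.87 at 6 weeks, against 10.64 and 10.68 in SHR rats at 4 weeks and 11.02 and 11.07 at 6 weeks. At 4 weeks both Dahl rats were above both SHR rats, and at 6 weeks both were below. Ezr was 1.28-fold higher in Dahl rats at 4 weeks (0.36, SE 0.059, adjusted p = 0.0300). This call was lost among the bright probe sets alone (adjusted p = 0.0796), and without Dahl 4 weeks replicate 2 (0.28, 0.0778), SHR 4 weeks replicate 1 (0.33, 0.0896), SHR 4 weeks replicate 2 (0.38, 0.0959) or either SHR rat of 6 weeks (0.36, 0.0713). The difference was -0.14 at 6 weeks (adjusted p = 0.162) and 0.11 over both ages (95% confidence interval -0.00013 to 0.22, adjusted p = 0.0945). Ezr differed by 0.38 between 6 and 4 weeks in SHR rats (adjusted p = 0.0531) and by -0.11 in Dahl rats (adjusted p = 0.689).

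Rdx, which encodes radixin, showed a small difference in the same direction in all of its probe sets. The main one was at 9.57 and 9.74 in Dahl rats at 4 weeks and 9.78 and 9.92 at 6 weeks, against 9.34 and 9.53 in SHR rats at 4 weeks and 9.37 and 9.55 at 6 weeks. Every Dahl rat was above every SHR rat, the closest pair being 9.57 and 9.55. Rdx was 1.24-fold higher in Dahl rats over both ages (0.30, SE 0.078, adjusted p = 0.0415), with 0.22 at 4 weeks (adjusted p = 0.199) and 0.39 at 6 weeks (adjusted p = 0.107). Its 4 other probe sets differed by 0.30, 0.55, 0.64 and 0.33. The call was lost when any 1 of the 8 arrays was left out, with differences between 0.26 and 0.35.

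By age, 7 of the 9 genes were higher in Dahl rats at 4 weeks, where 5.63% of all probe sets were, and 2 at 6 weeks, where 1.65% were. Those at 4 weeks were Svil, Pls3, Lcp1, Flna, Lima1, Msn and Ezr, and those at 6 weeks Svil and Lima1. The median difference of the 9 genes was 0.89 at 4 weeks and 0.55 at 6 weeks. At 4 weeks all 9 differences were above 0, and at 6 weeks 7 were. The calls over all probe sets also varied with the array left out, so the counts that follow are not particular to these genes. The 4-week count ran from 0, without Dahl 4 weeks replicate 2, to 8, without either Dahl rat of 6 weeks, and it was 1 without SHR 4 weeks replicate 2, 2 without either SHR rat of 6 weeks and 4 without Dahl 4 weeks replicate 1 or SHR 4 weeks replicate 1. The 6-week count was 0 without Dahl 6 weeks replicate 2 or any 1 of the 4 SHR rats and 1 without either Dahl rat of 4 weeks.

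The strain difference itself was compared between the ages, and 0 of the 9 genes passed, where 0.519% of all probe sets did (limma). Its estimate was below 0 for 7 of the 9 genes, with a median of -0.50. The 95% confidence interval lay below 0 for Lcp1 (-2.88 to -0.91), Flna (-1.41 to -0.15), Actn1 (-1.64 to -0.19), Msn (-0.92 to -0.15) and Ezr (-0.71 to -0.28), before any adjustment. These are 5 genes at an unadjusted p under 0.05, where 11.0% of all probe sets lay under that p. The intervals of the second probe sets of Actn1 (-1.56 to 0.48) and Msn (-0.94 to 1.19) held 0. Between the ages, 2 genes, Lcp1 and Lima1, were higher at 6 weeks than at 4 weeks in SHR rats, where 1.50% of all probe sets were. In Dahl rats 0 genes passed by limma, where 0.0805% of all probe sets did in either direction. At an unadjusted p under 0.05 (limma), 2 of the 9, Lcp1 and Lima1, differed with age in Dahl rats, where 8.76% of all probe sets did. These comparisons share the arrays of the strain comparisons, and their calls over all probe sets also varied with the array left out. The count in SHR rats was 0 without either Dahl rat of 4 weeks or either SHR rat of 6 weeks, 1 (Lcp1) without either SHR rat of 4 weeks, and 4 without either Dahl rat of 6 weeks.

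**Figure D4:**
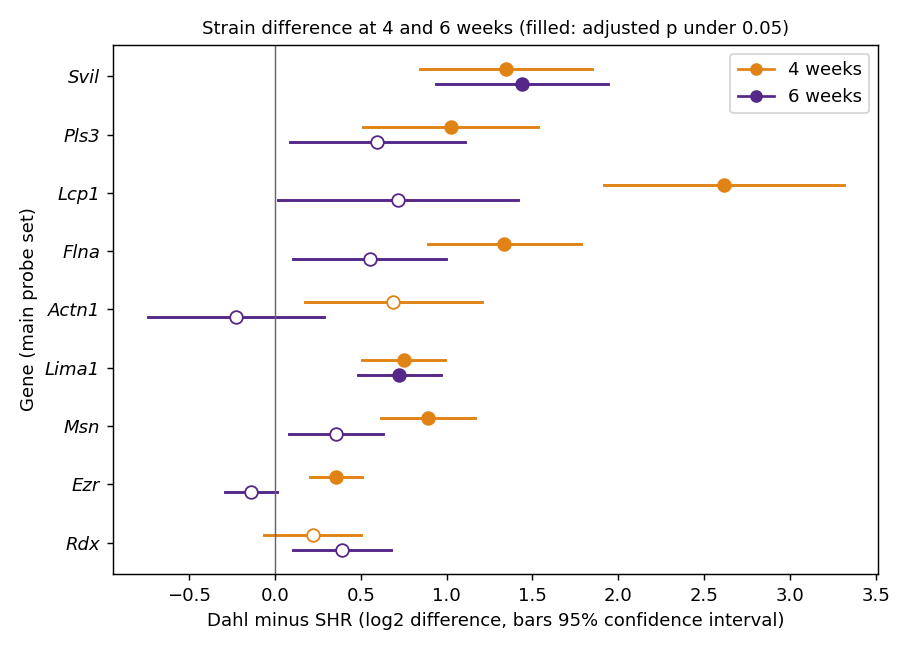
Dahl minus SHR (log2 difference, horizontal axis, bars 95% confidence intervals) at 4 weeks (orange) and 6 weeks (purple) for the main probe set of each gene (vertical axis); filled points passed at an adjusted p under 0.05. Svil and Lima1 have nearly the same difference at both ages, the Lcp1 difference is 2.61 at 4 weeks and 0.72 at 6 weeks, and that of Ezr is 0.36 and -0.14.

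Mesangial and smooth muscle markers, which belong to contractile cells rich in actin, were also higher in Dahl rats. Over both ages 11 of 18 were higher and 1 lower, where 10.6% and 24.2% of all probe sets were. At 4 weeks 9 markers were higher and none lower, where 5.63% and 6.41% of all probe sets were. At 6 weeks 1.65% of all probe sets were higher and 1.63% lower, and 1 of the 18 markers was higher and none lower. The log2 of their summed signal ran from 12.79 to 12.99 in Dahl rats at 4 weeks and from 12.98 to 13.23 at 6 weeks, against 11.85 to 11.91 in SHR rats at 4 weeks and 12.37 to 12.48 at 6 weeks. Cnn1, Lmod1 and Synpo2 were below the series median on every array. As in Pls3, Flna and Msn, SHR rats at 4 weeks were the lowest group and SHR rats at 6 weeks the next, and the part of these cells in those results was not tested.

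For each gene, the 2 other genes with the most similar values over the 8 arrays were taken from 3705 genes that span at least 1 on the log2 scale. The arrays share strain and age, so a high Pearson r describes a shared pattern over 4 groups and carries no test. Lcp1 was most like Coro1a (r = 0.997) and Ccl6 (0.994), a chemokine of myeloid cells in rodents. Msn was most like Cald1 (0.996), which encodes caldesmon, and Tmed3 (0.995). Flna was most like Tgfb1i1 (0.991), which encodes the focal adhesion protein Hic-5, and Tubb5 (0.989), a beta-tubulin. Pls3 was most like Mapre2 (0.996), a protein of microtubule ends, and Camk2g (0.995), and Svil was most like Tmem215 (0.996) and Ephb1 (0.989). Lima1 was closest to Dpp6 (0.989) and Zmat3 (0.985), Ezr to Dscc1 (0.982) and Cks1b (0.979), Rdx to Cyp2j4 (0.977) and Nbea (0.963), and Actn1 to Kdelr3 (0.954) and Rbl1 (0.948). Among the 9 genes themselves, Msn was close to Pls3 (0.979), Flna (0.960) and Lcp1 (0.945), while Actn1 had little in common with Rdx (0.265) and Svil (0.292).

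Calls among other crosslinkers and bundlers went in both directions, as they did over all probe sets. Of 29 measured genes, 9 were higher and 4 lower in Dahl rats over both ages, where 10.6% and 24.2% of all probe sets were. The list had a median difference of 0.16, against the 0.74 of the 9 genes. Cald1, which holds filaments in a contractile form, was higher by 0.84 (adjusted p = 0.00976), at 10.75, 10.85, 10.76 and 11.13 in Dahl rats, against 9.67, 9.56, 10.50 and 10.41 in SHR rats. The study itself also picked Cald1 from these arrays, so its direction is not independent of that choice. Coro1a was higher by 1.55 (adjusted p = 0.0107), and Synpo, which encodes the podocyte protein synaptopodin, by 0.59 (adjusted p = 0.0164). Besides Pls1, the lower genes were Eps8, a capping and bundling protein (-1.29, adjusted p = 0.0346), Ablim1, a LIM protein (-0.56, adjusted p = 0.0284), and Fam107a (-0.81, adjusted p = 0.0448). The other 2 probe sets of Eps8 differed by -0.23 (adjusted p = 0.642) and -1.14 (adjusted p = 0.0776) and did not pass. Its main probe set was at 8.74, 8.69, 8.77 and 7.51 in Dahl rats, against 10.13, 10.34, 9.05 and 9.35 in SHR rats, with Dahl 6 weeks replicate 2 again the lowest. The strains did not overlap in Cald1 or Eps8 within an age.

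Among 20 LIM and focal adhesion partners, 8 were higher and 1 lower in Dahl rats over both ages, where 10.6% and 24.2% of all probe sets were. The median of this list was 0.48. The list holds Parva, which the study also picked from these arrays. The integrin chains Itgb1 (0.48, adjusted p = 0.0143) and Itga3 (0.84, adjusted p = 0.0148), which bind laminin together, were both higher. Itga3 was at 10.62, 10.57, 11.04 and 11.39 in Dahl rats, against 10.05, 9.79, 10.06 and 10.34 in SHR rats, without overlap. Parvb (0.96, adjusted p = 0.0186) and Lims1 (0.53, adjusted p = 0.0248), adaptors of integrin-linked kinase, were also higher in their main probe sets. Of the 2 dimmer probe sets of Parvb, one was lower (-0.18, adjusted p = 0.0470) and the other differed by -0.073, and the second probe set of Lims1 differed by 0.059 (adjusted p = 0.517). Tns1, which encodes tensin 1, was lower (-0.46, adjusted p = 0.0209), but its second probe set differed by 0.0073.

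Of 23 measured partners and regulators of ERM proteins, 10 were higher and 2 lower in Dahl rats over both ages. Of all probe sets, 10.6% were higher and 24.2% lower. The median of this list was 0.23. Icam2 (0.76, adjusted p = 0.0132) and Icam1 (0.71, adjusted p = 0.0177), adhesion proteins whose tails bind ERM proteins, and Slk (0.81, adjusted p = 0.0191), a kinase that phosphorylates them, were higher. Icam2 was at 9.70, 9.91, 10.24 and 10.54 in Dahl rats, against 9.18, 8.93, 9.65 and 9.60 in SHR rats. Clic4 passed with a difference of 0.16 in its main probe set (adjusted p = 0.0126). Its dimmer probe sets also passed, with larger differences of 0.45, 0.83 and 0.96. The lower genes were Epb41 (-0.85, adjusted p = 0.0236) and Epb41l5 (-1.44, adjusted p = 0.0302), which encode proteins with the same membrane-binding domain as the ERM proteins. At 4 weeks each of the 3 lists had 4 genes higher in Dahl rats, where 5.63% of all probe sets were. Lower at 4 weeks were 0 of the other crosslinkers, 1 of the focal adhesion genes and 1 of the ERM partners, and 6.41% of all probe sets. At 6 weeks Pls1 was the only gene of the 3 lists that passed, where 3.28% of all probe sets did. Synpo is also a podocyte marker and Coro1a a leukocyte marker.

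**Figure D5:**
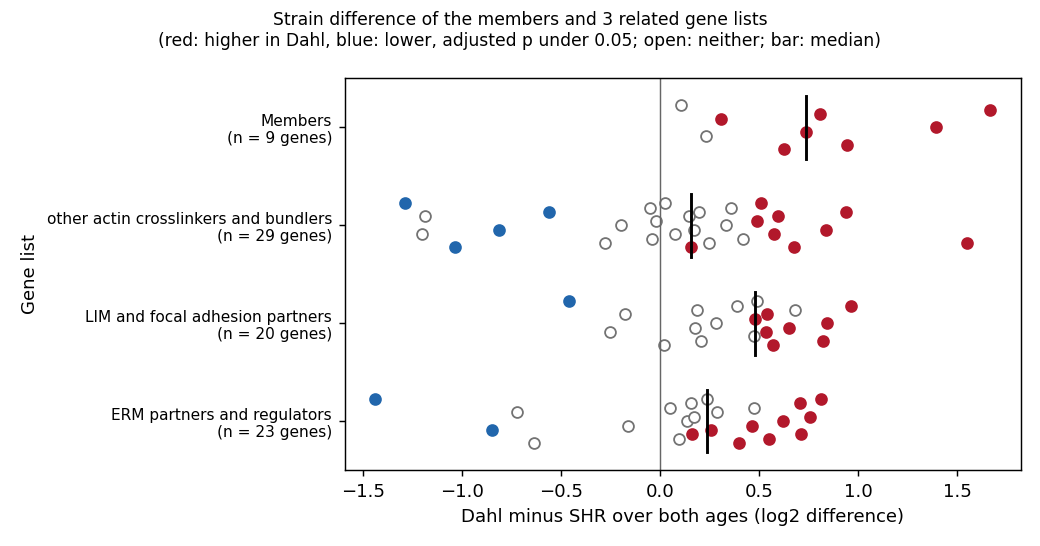
Dahl minus SHR over both ages (log2 difference, horizontal axis) for the main probe set of each gene of 4 lists (rows), red where higher and blue where lower in Dahl rats at an adjusted p under 0.05, open where neither, with a bar at the median. The 9 genes have a median of 0.74 and none below 0, while the other lists, with medians of 0.16, 0.48 and 0.23, hold genes on both sides.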

How the data were processed

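The values are log2 intensities per probe set of a rat genome array, which the authors had already background-corrected, normalized between arrays and summarized before they deposited them. RMA and GCRMA appear in the submitters' notes, and the one behind these values was not given in the sources used. The values were not normalized again. The table holds 31099 probe sets including 57 controls, which were dropped, and the platform annotation named 1 gene for 20826, several for 436 and none for 9780.

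The means of the 4 groups were modelled over the 8 arrays in limma 3.58.1 (R 4.3.3, with 4 residual degrees of freedom), and p values were Benjamini-Hochberg adjusted over all 31042 probe sets, with a threshold of 0.05. The fit was tested on simulated data. The number of arrays limits the precision. The genes named are the 9 genes, up to 4 genes of each related list with the smallest p and those against its majority, and the 2 genes most like each of the 9. Actn4, Mrc1 and the other markers named beside a result were picked with their values already known. The genes and lists were chosen with earlier results of these data known. The alternatives were quantile normalization, median centring, an intensity trend with robust variance, bright probe sets alone, the mean of all probe sets of a gene, leaving out each array, the replicate number as a block, an additive model, the arrays of 1 age, and the methods' t-test. Promoter sequences are those of RefSeq for GRCr8.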

Additional observations from a re-analysis of the deposited data

Results flagged for a closer look

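Ezr was singled out because the strains were separated in opposite directions at the 2 ages, and the ages in opposite directions in the 2 strains. Each of these separations rests on 2 rats against 2, and the share of all probe sets with this order was not determined. The order is therefore not shown to be unusual. Both Dahl rats were above both SHR rats at 4 weeks (difference 0.36, a call lost in 5 of 8 fits with 1 array left out) and below them at 6 weeks (difference -0.14), and Ezr differed between 6 and 4 weeks by -0.11 in Dahl rats and by 0.38 in SHR rats. The interaction of strain and age (6 minus 4 weeks) was -0.50 (SE 0.083), which did not pass with limma (adjusted p = 0.117).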

How the results depend on the processing

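No called difference reversed its sign under the alternatives run. Over both ages, 7 genes were called, and 4 to 7 with 1 array left out. Svil, Lcp1, Lima1 and Msn passed without every single array. The count over both ages was 4 by the methods' t-test after Benjamini-Hochberg adjustment (Svil, Pls3, Flna and Rdx, all higher). By that test 38.7% of all 31042 probe sets passed (1979 higher, 10040 lower). The count over both ages was 5 at an unadjusted p under 0.05, where 49.6% did (3236 higher, 12152 lower). It was 0 in a fit of the arrays of 4 weeks alone, where 761 of 31042 probe sets were called. In a fit of those of 6 weeks alone it was also 0, where 2 of 31042 were called. These fits have fewer samples. Among the bright probe sets alone, Rdx did not pass over both ages (adjusted p = 0.0582) nor Ezr at 4 weeks (adjusted p = 0.0796). With 1 array left out the count was 0 to 8 at 4 weeks, 0 to 2 at 6 weeks, 0 to 4 between 6 and 4 weeks in SHR rats, and 0 in Dahl rats and for the difference between ages. The calls over all probe sets varied with the array left out as well. The methods' t-test gave 0 at 4 weeks, 0 at 6 weeks and 0 between 6 and 4 weeks in SHR rats after adjustment. This test passed 0, 4 and 0 of all 31042 probe sets, so these counts are not particular to the 9 genes. At an unadjusted p under 0.05, a setting added after seeing the data, it gave 7 at 4 weeks and 2 at 6 weeks. Of all 31042 probe sets, 31.4% passed at 4 weeks (2274 higher, 7476 lower) and 29.6% at 6 weeks (1625 higher, 7567 lower). Between 6 and 4 weeks the same test gave 2 in Dahl rats (4.43% of all probe sets) and 6 in SHR rats (12.7%). Quantile normalization gave 4 genes between 6 and 4 weeks in SHR rats, with Msn (0.70) and Ezr (0.41) added to Lcp1 and Lima1, and the mean of all probe sets gave 1 in Dahl rats (Lima1).

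With a replicate block, 7 genes were called over both ages, 5 at 4 weeks (Lcp1, Flna, Lima1, Msn and Rdx), 1 at 6 weeks (Rdx) and 1 between 6 and 4 weeks in SHR rats (Lcp1). Deviations of arrays with the same number correlated at -0.23 to 0.24 over 6 pairs of groups. These weak correlations over all probe sets do not settle whether the numbers pair the rats. In the main probe set of Rdx, replicate 2 lay above replicate 1 in every group. Over all probe sets, 10787 differed over both ages (3283 higher, 7504 lower), against 4740 after quantile normalization (2261 higher, 2479 lower), 15891 after median centring (3495 higher, 12396 lower), 5598 with the block, 2286 to 11471 with 1 array left out, and 15388 by the methods' t-test at an unadjusted p. The split of higher and lower calls over all probe sets therefore depends on scaling, and the cause was not tested. Background correction and a block by slide or scan were not run, as the values were already summarized and no such batch was given.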
